A study of Marchantia polymorpha and Arabidopsis thaliana and Oryza sativa Japonica Group with 80 samples.

Results

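The 10 genes described here form the core of the circadian clock of Arabidopsis thaliana, and were chosen by name: LHY (AT1G01060), CCA1 (AT2G46830), PRR9 (AT2G46790), PRR7 (AT5G02810), PRR5 (AT5G24470), TOC1 (AT5G61380), ELF3 (AT2G25930), ELF4 (AT2G40080), LUX (AT3G46640) and GI (AT1G22770). Of these 10 genes, 7 were measured in a salt time course with 24060 genes in its table, and all 10 in a mutant experiment with 34218 genes. All 7 and all 10 passed the filter on low counts. PRR7, PRR5 and LUX were analysed in the mutant experiment only.

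RNA was sequenced from 7-day-old seedlings of the Columbia accession (Col-0), grown in liquid half-strength Murashige and Skoog medium under continuous light. The time course holds Col-0 before salt (0 h), over the first day of 100 mM NaCl (1, 3, 6 and 12 h) and after whole days in it (24, 48 and 72 h), with 2 libraries at each time. The mutant experiment holds a line labelled as a wrky25/33 knockout, and Col-0, each at 0, 2 and 24 h of the same salt, with 3 libraries in each group. These are 34 of the 80 samples of the series. No untreated seedlings after 0 h and no clock hour of harvest are given, so the effects of salt, of hours elapsed and of the hour of day cannot be told apart in any comparison with 0 h. Comparisons between the lines at a matched hour share salt and hour. The labels number the libraries of a group and do not say whether they came from separate cultures, so p-values measure the spread between libraries.

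The plant clock is a set of transcription factors that repress one another in sequence over the day. The morning pair LHY and CCA1, which are MYB proteins, repress evening genes. The pseudo-response regulators follow in the order PRR9, PRR7, PRR5 and TOC1 and repress the morning pair. ELF3, ELF4 and LUX form the evening complex, a repressor of PRR9 and PRR7, and GI stabilises a protein that degrades TOC1 and PRR5 and acts in photoperiodic flowering. GI is also known in Arabidopsis to hold back SOS2, a kinase of the salt tolerance pathway. In continuous light the rhythm runs freely, and its period need not match a day.

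Counted reads ranged over 18404537 to 24148375 per library in the time course and over 17431071 to 41887006 in the mutant experiment. The lowest count of any clock gene was 83 reads, for PRR9 in a Col-0 0 h library. RD29A, a salt and drought marker, was at 30.6 and 31.9 CPM (the reads of a gene scaled to a common library size) at 0 h of the time course and 1830 and 1933 CPM at 1 h. Of the 2 genes checked for the salt response, RD29A and P5CS1, 2 rose at each time from 1 to 24 h of the course. At 48 and 72 h 1 of 2 did. In the mutant experiment 2 rose at 2 h in each line and 1 at 24 h. With the batches fitted as a block, 1 rose and 1 fell at 24 h in each line. RNA of WRKY25 and WRKY33 was not detectably reduced in the line labelled wrky25/33, with 0 of 2 called against Col-0 at 0, 2 or 24 h. WRKY33 was at 44.5, 30.7 and 164 CPM in that line at 0 h, against 30.0, 20.5 and 229 CPM in Col-0, and WRKY25 at 44.5, 33.2 and 42.0 CPM, against 41.2, 24.7 and 41.1 CPM. A disrupted gene can still be transcribed, so counts alone do not settle the genotype, and the line is called by its label throughout. In both lines the 0 h library of batch 3 stood apart with the high WRKY33 values. The Col-0 24 h library of batch 2 was the least like its group (Pearson's r across genes of 0.943 and 0.940 with the other two).

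In the time course the clock genes moved by small steps and not together. LHY was lower at 6 and 12 h, CCA1 was higher at 1 and 24 h, PRR9 was higher at 1 h, GI at 3 and 6 h and ELF4 at 6 and 12 h, and TOC1 was lower at 48 h.  The highest time mean was 2.70 times the lowest for PRR9, 2.104 for GI, 2.05 for ELF4, 1.74 for LHY, 1.73 for TOC1, 1.63 for CCA1 and 1.41 for ELF3. The median of these 7 ratios was 1.74, beside 1.66 over the 11121 genes with a mean of at least 5 CPM. Calls rest on edgeR's quasi-likelihood test at a Benjamini-Hochberg adjusted p below 0.05 over 15407 genes. Every such call on a clock gene was lost on leaving out at least 1 library, and the libraries concerned are named beside each result.

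**Figure D1:**
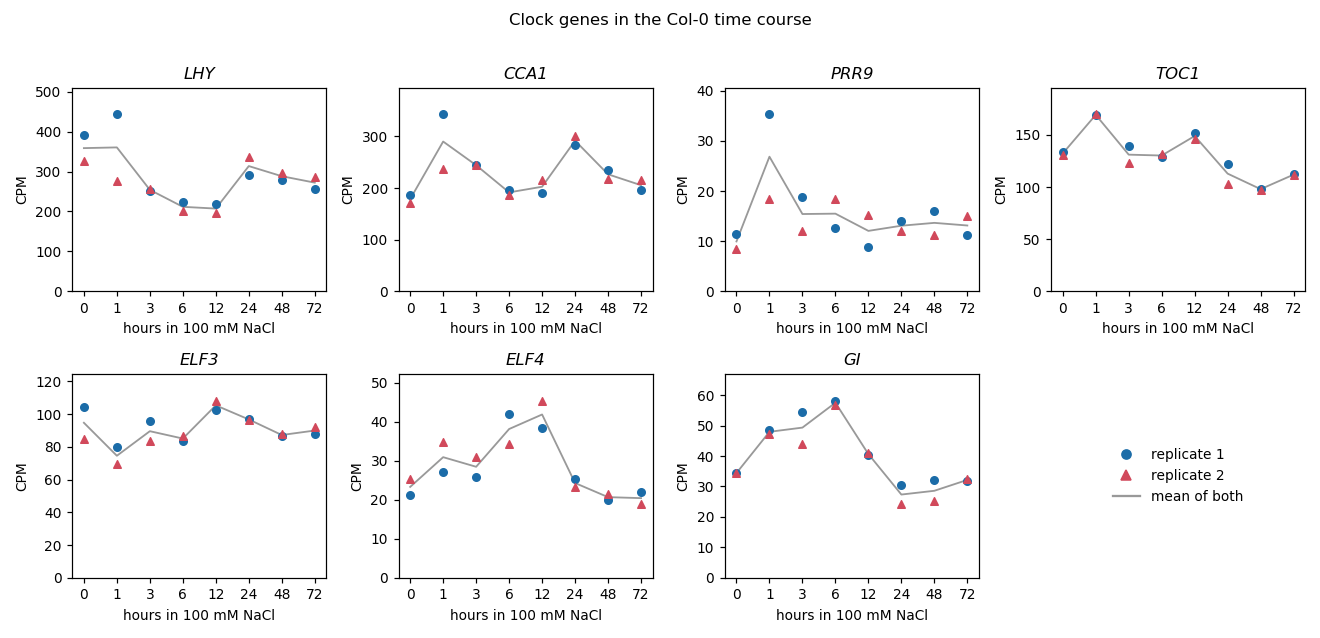
Level of each clock gene in CPM (linear axis from 0) against hours in 100 mM NaCl in Col-0 seedlings, with the times evenly spaced and not to scale. Circles and triangles are replicates 1 and 2 and the grey line joins their means. GI peaks at 6 h with 58.2 and 56.8 CPM, ELF4 at 12 h with 38.3 and 45.5 CPM, and CCA1 is high at 1 h and again at 24 h.

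LHY started high and was low in the middle of the first day. It had 392 and 325 CPM at 0 h, 443 and 278 after 1 h, 251 and 257 after 3 h, 223 and 200 after 6 h, 218 and 197 after 12 h, 292 and 336 after 24 h, 280 and 297 after 48 h, and 257 and 287 after 72 h. Both libraries at 3, 6, 12, 48 and 72 h lay below both 0 h libraries, while those of 1 and 24 h overlapped them. The log2 fold change against 0 h was -0.76 ± 0.19 (SE) after 6 h and -0.79 ± 0.19 after 12 h, and edgeR's adjusted p was 0.0350 and 0.0380. The call at 6 h was lost without either library of 0, 6 or 24 h or replicate 1 of 48 h, with adjusted p of up to 0.248 and fold changes of -0.90 to -0.62. The call at 12 h was lost without either library of 0, 6, 12, 24 or 48 h or replicate 2 of 3 h, with adjusted p of up to 0.222 and fold changes of -0.92 to -0.65. In the order of its levels over the 8 times, 3 h and 6 h were the only neighbours whose libraries did not overlap.

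CCA1, the close relative of LHY, did not follow it. Its values were 187 and 170 CPM at 0 h, 343 and 237 after 1 h, 245 and 244 after 3 h, 197 and 186 after 6 h, 191 and 215 after 12 h, 284 and 300 after 24 h, 235 and 219 after 48 h, and 196 and 216 after 72 h. Every library of 1, 3, 12, 24, 48 and 72 h lay above both 0 h libraries, which held the lowest mean of the course. CCA1 rose at 1 h by 0.70 ± 0.16 on the log2 scale (edgeR adjusted p = 0.00992) and was 0.71 ± 0.16 higher at 24 h (0.0133). The 1 h call was lost without replicate 1 of 1 h, where the fold change was 0.41, or without replicate 2 of 0 h, with adjusted p of up to 0.0931, and in a fit of the 0 and 1 h libraries alone (0.143). The 24 h call was lost without either 24 h library or replicate 2 of 0 h, with adjusted p of up to 0.124. At 3 h the fold change was 0.45 ± 0.16 with an adjusted p of 0.0777, and DESeq2 called it (0.0306). Neighbours in the order of its levels were apart between 3 and 48 h and between 48 and 72 h.

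PRR9, the earliest of the pseudo-response regulators, had the largest single step of the measured clock genes. It had 11.4 and 8.54 CPM at 0 h, 35.3 and 18.4 after 1 h, 18.9 and 11.95 after 3 h, 12.7 and 18.3 after 6 h, 8.92 and 15.2 after 12 h, 14.1 and 12.1 after 24 h, 16.0 and 11.3 after 48 h, and 11.33 and 14.95 after 72 h. Its 2 libraries disagreed at most times, and at 1 h replicate 1 was well above replicate 2, as for LHY and CCA1. PRR9 rose at 1 h by 1.43 ± 0.36 on the log2 scale (edgeR adjusted p = 0.0179). The call was lost without replicate 1 of 1 h or either 0 h library, with adjusted p of up to 0.160 and fold changes of 0.88 to 1.84, and in a fit of the 0 and 1 h libraries alone (0.0694). Only 1 h was apart from its neighbour in the order of levels.

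TOC1, the regulator that closes the loop with the morning pair, was high at 1 h and low at 48 h. Its values were 134 and 131 CPM at 0 h, 169 and 170 after 1 h, 139 and 123 after 3 h, 129 and 132 after 6 h, 152 and 146 after 12 h, 123 and 103 after 24 h, 98.6 and 97.5 after 48 h, and 113 and 111 after 72 h. Both libraries at 24, 48 and 72 h lay below both at 0 h, and both at 1 and 12 h lay above. The fall at 48 h was -0.43 ± 0.11 on the log2 scale (edgeR adjusted p = 0.0182). It was lost without either library of 0 or 48 h, with adjusted p of up to 0.117, and when libraries were scaled by total reads in place of TMM, where it was -0.26 with an adjusted p of 0.228. The value at 1 h was 0.36 ± 0.11 with an adjusted p of 0.0556, and DESeq2 called it (0.00707). The highest 3 times, 1, 12 and 0 h, were apart from one another in order, as were 6 from 24 h and 72 from 48 h.

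ELF4, a small protein of the evening complex, rose in the middle of the first day, when LHY was low. It had 21.3 and 25.3 CPM at 0 h, 27.2 and 34.7 after 1 h, 25.98 and 30.99 after 3 h, 42.1 and 34.3 after 6 h, 38.3 and 45.5 after 12 h, 25.2 and 23.4 after 24 h, 20.0 and 21.4 after 48 h, and 22.0 and 18.8 after 72 h. The libraries of 6 and 12 h overlapped each other, and both times lay above 0 h and the 3 later times. ELF4 rose by 0.71 ± 0.17 on the log2 scale at 6 h and by 0.85 ± 0.17 at 12 h, with edgeR adjusted p of 0.0275 and 0.0155. The 6 h call was lost without any library of 0 or 6 h, with adjusted p of up to 0.255 and fold changes of 0.56 to 0.85, and the 12 h call without either 0 h library or replicate 2 of 12 h, with adjusted p of up to 0.152. In the order of its levels only 3 and 24 h were neighbours apart.

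ELF3, the scaffold of the evening complex, was called at no time by edgeR and at 1 h by DESeq2 (-0.34 ± 0.13, adjusted p = 0.0493). Its values were 104 and 84.9 CPM at 0 h, 79.8 and 69.2 after 1 h, 95.6 and 83.5 after 3 h, 83.3 and 86.8 after 6 h, 102 and 108 after 12 h, 96.9 and 96.5 after 24 h, 86.5 and 87.9 after 48 h, and 88.0 and 91.9 after 72 h. Its lowest mean was at 1 h, where the fold change was -0.34 ± 0.13 on the log2 scale with an edgeR adjusted p of 0.0980. Its highest mean was at 12 h, with 0.15 ± 0.13 and an adjusted p of 0.568. Neighbours in its order were apart between 12 and 24 h and between 6 and 1 h.

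GI climbed over the first 6 h and then fell back. It had 34.5 and 34.3 CPM at 0 h, 48.7 and 47.3 after 1 h, 54.6 and 44.1 after 3 h, 58.2 and 56.8 after 6 h, 40.4 and 40.9 after 12 h, 30.5 and 24.2 after 24 h, 32.1 and 25.1 after 48 h, and 31.9 and 32.4 after 72 h. Both libraries at 1, 3, 6 and 12 h lay above 0 h, and both at 24, 48 and 72 h below. The log2 fold change was 0.52 ± 0.15 at 3 h and 0.74 ± 0.15 at 6 h, with edgeR adjusted p of 0.0339 and 0.0130, while 0.48 ± 0.15 at 1 h missed the threshold with 0.0517, and DESeq2 called it (0.0226). The 3 h call was lost without either 0 h library or replicate 1 of 3 h, with adjusted p of up to 0.221 and fold changes of 0.36 to 0.69, in a fit of the 0 and 3 h libraries alone (0.0921) and with scaling by total reads (0.131). The 6 h call was lost without any library of 0 or 6 h, with adjusted p of up to 0.106, and with scaling by total reads (0.0986). In the order of levels 6 and 3 h were apart, as were 1 from 12 h, 12 from 0 h and 0 from 72 h.

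**Figure D2:**
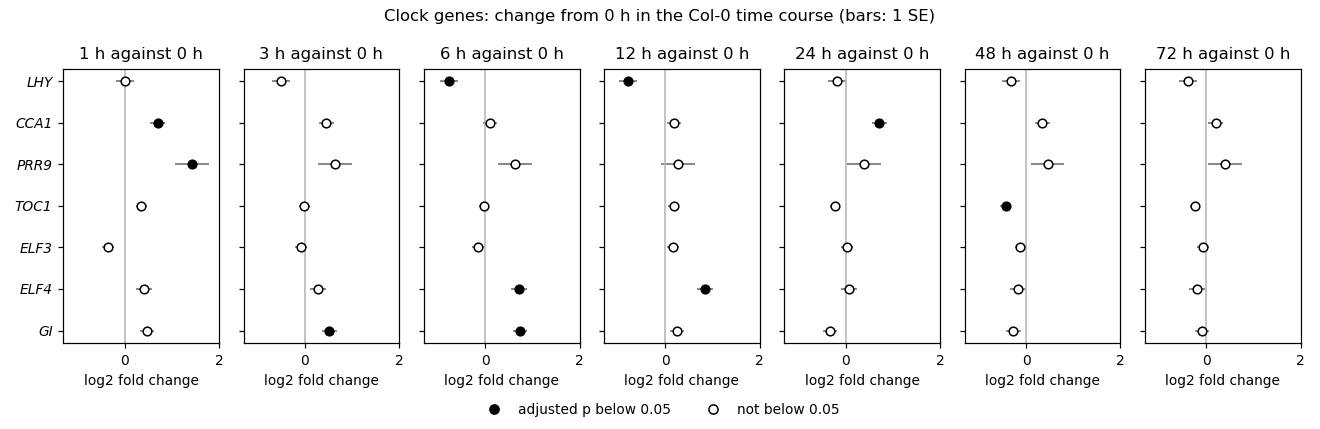
Log2 fold change of each clock gene against 0 h at the 7 later times of the Col-0 time course, with bars of 1 SE; filled points have an edgeR adjusted p below 0.05 and open points do not. CCA1 and PRR9 are filled at 1 h, GI at 3 and 6 h, ELF4 and LHY at 6 and 12 h, CCA1 at 24 h, and TOC1 at 48 h.

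Counts over the 7 measured clock genes lay above the share of all genes at some times and below it at others. At 1 h 2 rose and 0 fell by edgeR, where 8.74% of all genes rose and 5.45% fell (14.2% in all), and the median log2 fold change of the 7 was 0.41 beside -0.02 for all genes. At 3 h 1 rose and 0 fell, where 8.5% and 6.54% of all genes did (15% in all), with a median of 0.29 beside -0.02. At 6 h 2 rose and 1 fell, where 4.26% and 2.24% did (6.5% in all), and at 12 h 1 rose and 1 fell, where 2.6% and 1.64% did (4.24% in all). At 24 h 1 rose and 0 fell, where 6.45% and 6.15% did (12.6% in all), and at 48 h 0 rose and 1 fell, where 10.4% and 11.6% did (22% in all). At 72 h 0 of 7 were called, with 0 at an unadjusted p under 0.05 and 0 by DESeq2, although 24.8% of all genes were called. Scaling by total reads moved the median of all genes by -0.16 on the log2 scale at 6 h, by 0.17 at 48 h and by 0.14 at 72 h relative to TMM, so that fold changes of that size depend on the scaling.

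Times that lie whole days apart would fall on the same hour of day if harvests kept to the labelled hours. Among 0, 24, 48 and 72 h, a single edgeR test with 3 degrees of freedom called CCA1 alone of the 7 clock genes (adjusted p = 0.0294), where 20.6% of all genes were called. CCA1 averaged 179 CPM at 0 h and 292, 227 and 206 CPM at 24, 48 and 72 h. The call on CCA1 was lost, leaving 0 clock genes, without either library of 0 or 24 h and with scaling by total reads. Between successive days in salt 0 of 7 clock genes were called by edgeR, for 48 h against 24 h (0.026% of all genes called, or 4) and for 72 h against 48 h (0% of all genes called). At an unadjusted p under 0.05 these counts were 1 and 0 clock genes, and 0 and 0 were called by DESeq2. CCA1 had the largest of these differences, -0.36 ± 0.16 on the log2 scale for 48 h against 24 h (adjusted p = 0.918).

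The 12 h libraries stand midway between 0 and 24 h, and only ELF4 was called at 12 h against the mean of these 2 times. The difference was 0.82 ± 0.14 on the log2 scale (edgeR adjusted p = 0.0284), where 0.662% of all genes were called. It was lost without any library of 0, 12 or 24 h, with adjusted p of up to 0.185 and values of 0.69 to 0.94. ELF4 had 38.3 and 45.5 CPM at 12 h, against 18.8 to 25.3 CPM over the libraries of 0, 24, 48 and 72 h, which did not overlap it. At the whole-day times its fold changes against 0 h were 0.06 ± 0.17 at 24 h, -0.17 ± 0.17 at 48 h and -0.19 ± 0.17 at 72 h, none of which was called.

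Pairs of clock genes varied widely in likeness over the 8 time means of log2 CPM, which share libraries. Pearson's r was 0.373 for LHY with CCA1, -0.001 for LHY with TOC1, 0.085 for CCA1 with TOC1, -0.636 for LHY with ELF4 and 0.746 for ELF4 with GI. These are descriptions over 8 points. The genes most like CCA1 in pattern were AT1G43850 (r = 0.919) and AT2G26590 (0.913), and those most like TOC1 were AT1G56300 (0.986) and AT1G19400 (0.962), also over 8 times. The tables give them no names.

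Markers of shoot and root shifted over the same times. The summed level of 5 shoot markers (RBCS1A, LHCB1.3, LHCB2.1, CA1 and PSAD2) was 46880 to 71560 CPM at 0 h, 71930 to 82650 at 6 h, 35630 to 40730 at 24 h, 31210 to 32760 at 48 h and 32810 to 35210 at 72 h. Replicates 1 and 2 had 43600 and 76070 CPM at 1 h and 45910 and 82490 CPM at 3 h. Replicate 1 was the lower at 0 h too. The sum of 4 root markers (COBL9, CASP1, PER64 and RHD6) was 21.2 to 31.4 CPM at 0 h, 44.5 to 55.3 at 6 h, 14.69 to 14.70 at 24 h, 11.9 to 15.9 at 48 h and 21.5 to 27.0 at 72 h. COBL9, a root hair gene, was at 0 in 1 library, replicate 2 of 48 h. Of the shoot markers 0 of 5 were called at 1, 3, 6 and 12 h, 1 of 5 fell at each of 24 and 48 h and 2 of 5 fell at 72 h. Of the root markers 1 of 4 rose at each of 3 and 6 h, 1 of 4 fell at each of 1, 24, 48 and 72 h and 0 were called at 12 h. The part of these shifts in the clock gene values was not tested, and in seedling RNA fewer cells of a type and less RNA per cell cannot be told apart.

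Around the core, the RVE and LNK family, MYB relatives of LHY and their partners that activate evening genes, had called members at the first time sampled, as had the other lists. Of its 6 measured members 4 rose and 0 fell at 1 h by edgeR, with a median of 1.06 on the log2 scale beside -0.02 for all genes, and 4 of 6 rose at 3 h, with a median of 0.69. Of all genes 8.74%, 8.5% and 6.45% rose at 1, 3 and 24 h. At 6, 12, 48 and 72 h 0 of 6 were called, with 0 at an unadjusted p under 0.05. At 24 h 1 of 6 rose, RVE3 (0.74 ± 0.22, adjusted p = 0.0468), a call lost without any of 14 of the 16 libraries, with adjusted p of up to 0.255. RVE3 had 72.0 and 38.8 CPM at 1 h, against 11.7 and 10.2 CPM at 0 h, a rise of 2.34 ± 0.23 on the log2 scale (adjusted p = 2.91e-05). RVE5 and RVE6 rose at 1 h by 1.06 ± 0.16 and 1.05 ± 0.13, and RVE6 by 0.82 ± 0.13 at 3 h (adjusted p of 0.000785, 0.000144 and 0.000952). These 4 calls, on RVE3, RVE5 and RVE6 at 1 h and RVE6 at 3 h, were kept without each of the 16 libraries in turn. RVE3 and RVE5 were also called at 3 h, and lost the call with scaling by total reads (edgeR adjusted p of 0.0817 and 0.113). RVE5 lost it too in a fit of the 0 and 3 h libraries alone (0.0519).

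Of the clock outputs, some were higher at the early times and some lower at the late ones. Of 13 measured outputs 4 rose and 0 fell at 1 h, 3 rose and 1 fell at 3 h, 4 rose and 1 fell at 6 h, 0 rose and 1 fell at 12 h, 1 rose and 2 fell at 24 h, and 0 rose while 4 and 5 fell at 48 and 72 h. The shares of all genes called at 1 to 48 h are given above, and 12.3% rose and 12.5% fell at 72 h. CDF1, a repressor of flowering that GI helps to remove, had 70.4 and 54.8 CPM at 1 h, against 9.47 and 9.84 CPM at 0 h. Its rise was 2.70 ± 0.18 at 1 h, 1.55 ± 0.17 at 3 h and 1.22 ± 0.17 at 6 h on the log2 scale (edgeR adjusted p of 2.78e-06, 0.000101 and 0.00213). PIF4, a growth-promoting factor that the evening complex represses, had 64.0 and 43.2 CPM at 3 h, against 13.3 and 13.8 CPM at 0 h (1.99 ± 0.30, adjusted p = 0.000722). RVE2, a MYB relative, was at 139 and 151 CPM at 48 h, against 344 and 287 CPM at 0 h (-1.12 ± 0.18, adjusted p = 0.00146), and was lower again at 72 h (-0.94 ± 0.18, 0.00345). These 6 calls were kept without each of the 16 libraries in turn.

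Other clock components fell mainly at the later times. Of 12 measured, 1 rose and 1 fell at 1 h, 0 were called at 3, 6 and 12 h (with 1, 2 and 1 at an unadjusted p under 0.05), and 3, 5 and 6 fell at 24, 48 and 72 h with 0 that rose. Of all genes 8.74% rose and 5.45% fell at 1 h, and 6.15% and 11.6% fell at 24 and 48 h. At 72 h 1933 of the 15407 genes tested fell. Their medians at 24, 48 and 72 h were -0.27, -0.46 and -0.37 on the log2 scale, beside 0.01, 0.01 and 0.03 for all genes. JMJD5, a demethylase, had 18.2 and 14.7 CPM at 48 h, against 40.3 and 37.4 CPM at 0 h (-1.24 ± 0.19, edgeR adjusted p = 0.00106), and was lower by a like amount at 72 h (-1.28 ± 0.19, 0.000862). CHE, a repressor of CCA1, had 12.1 and 7.90 CPM at 72 h, against 29.8 and 41.7 CPM at 0 h (-1.83 ± 0.36, adjusted p = 0.00398). NOX, the relative of LUX, was lower at 48 h by -0.97 ± 0.18 (0.00279). At 1 h NOX was the component that rose and CHE the one that fell. Both 1 h calls were lost in a fit of the 0 and 1 h libraries alone, at 0.62 and -1.15 on the log2 scale (edgeR adjusted p of 0.0880 and 0.131). Of 5 light receptors and HY5, CRY1 alone fell at 1 h, PHYA alone rose at 6 h and PHYB alone rose at 24 and 48 h. At 3, 12 and 72 h 0 were called. Of all genes 5.45% fell at 1 h, and 4.26%, 6.45% and 10.4% rose at 6, 24 and 48 h. The rise of PHYA was 0.80 ± 0.13 (adjusted p = 0.00426), a call lost without replicate 1 of 0 h (adjusted p = 0.0627). The CRY1 call and the PHYB call at 48 h were lost in fits of the compared groups alone (edgeR adjusted p of 0.133 and 0.0505). The PHYB call at 24 h was lost with scaling by total reads (0.0624).

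**Figure D3:**
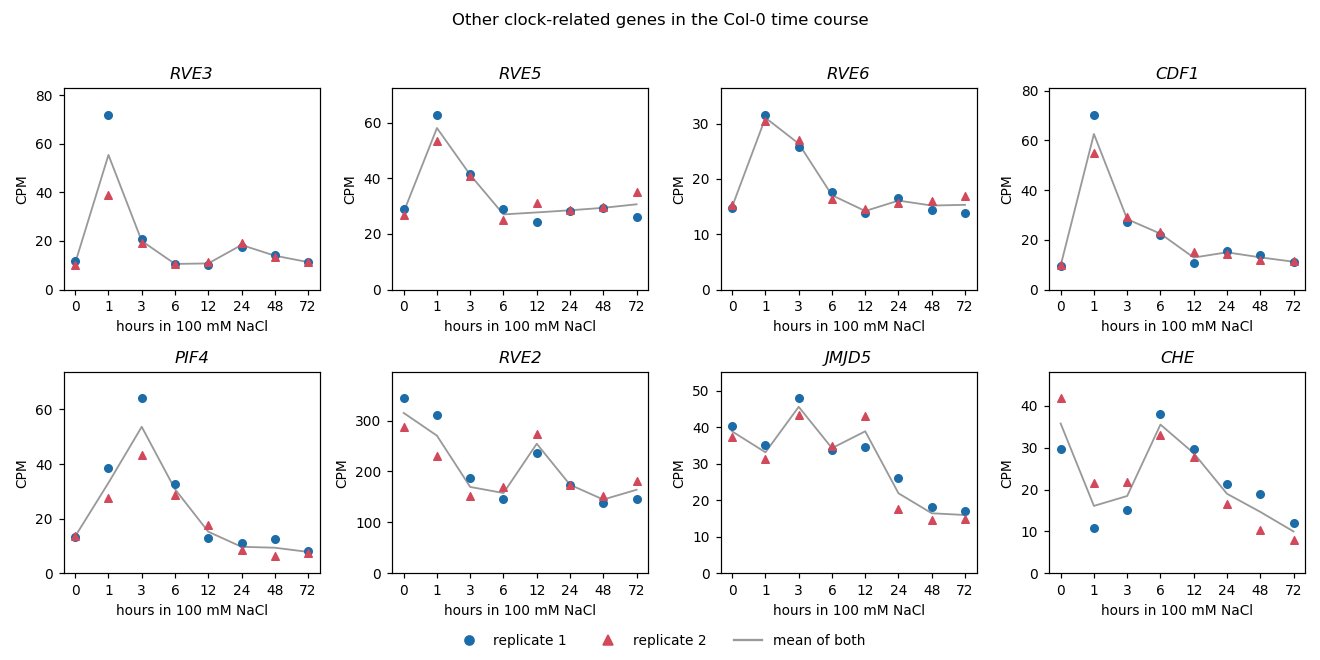
Level in CPM (linear axis from 0) of 8 genes around the clock against hours in 100 mM NaCl in Col-0 seedlings, times evenly spaced and not to scale; circles and triangles are replicates 1 and 2 and the grey line joins their means. RVE3, RVE5, RVE6 and CDF1 peak at 1 h, PIF4 peaks at 3 h, and RVE2, JMJD5 and CHE end the course below their 0 h libraries.

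In the mutant experiment PRR7 rose at 24 h in both lines, and with the batches fitted as a block PRR5, CCA1 and ELF4 rose at 24 h in both lines too. In the line labelled wrky25/33 it had 437, 271 and 312 CPM at 24 h, against 200, 117 and 112 CPM at 0 h. In Col-0 it had 341, 167 and 446 CPM at 24 h, against 162, 102 and 98.4 CPM at 0 h. Every 24 h library lay above every 0 h library of its line. The log2 fold change was 1.25 ± 0.38 in the line labelled wrky25/33 and 1.40 ± 0.38 in Col-0 (edgeR adjusted p of 0.0329 and 0.0196). In this fit, without the block, it was the only clock gene of 10 called in each line, where 10.1% of all genes rose and 8.43% fell in the line labelled wrky25/33 (18.5% in all) and 10.4% and 8.34% did in Col-0 (18.7% in all). At 2 h PRR7 had 226, 116 and 151 CPM in the line labelled wrky25/33 and 237, 117 and 145 CPM in Col-0, and overlapped 0 h in both.

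The batches pair these libraries, and fitting batch as a block left the size of the PRR7 rise at 1.26 ± 0.22 in the line labelled wrky25/33 and 1.39 ± 0.22 in Col-0, with edgeR adjusted p of 0.00071 and 0.000409. Within batches 1, 2 and 3 the difference in log2 CPM of PRR7 at 24 h was 1.12, 1.21 and 1.48 in the line labelled wrky25/33 and 1.07, 0.71 and 2.18 in Col-0. Without the block the PRR7 call was lost in each line without replicate 2 or 3 of its 0 h or replicate 1 or 3 of its 24 h libraries, with adjusted p of up to 0.1314 in the line labelled wrky25/33 and 0.1001 in Col-0. It was lost without both 0 h libraries of batch 3 (0.124 and 0.0770, for the labelled line and Col-0), without all of batch 3 (0.201 and 0.307), and in Col-0 in a fit of its 0 and 24 h libraries alone (0.0945).

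**Figure D4:**
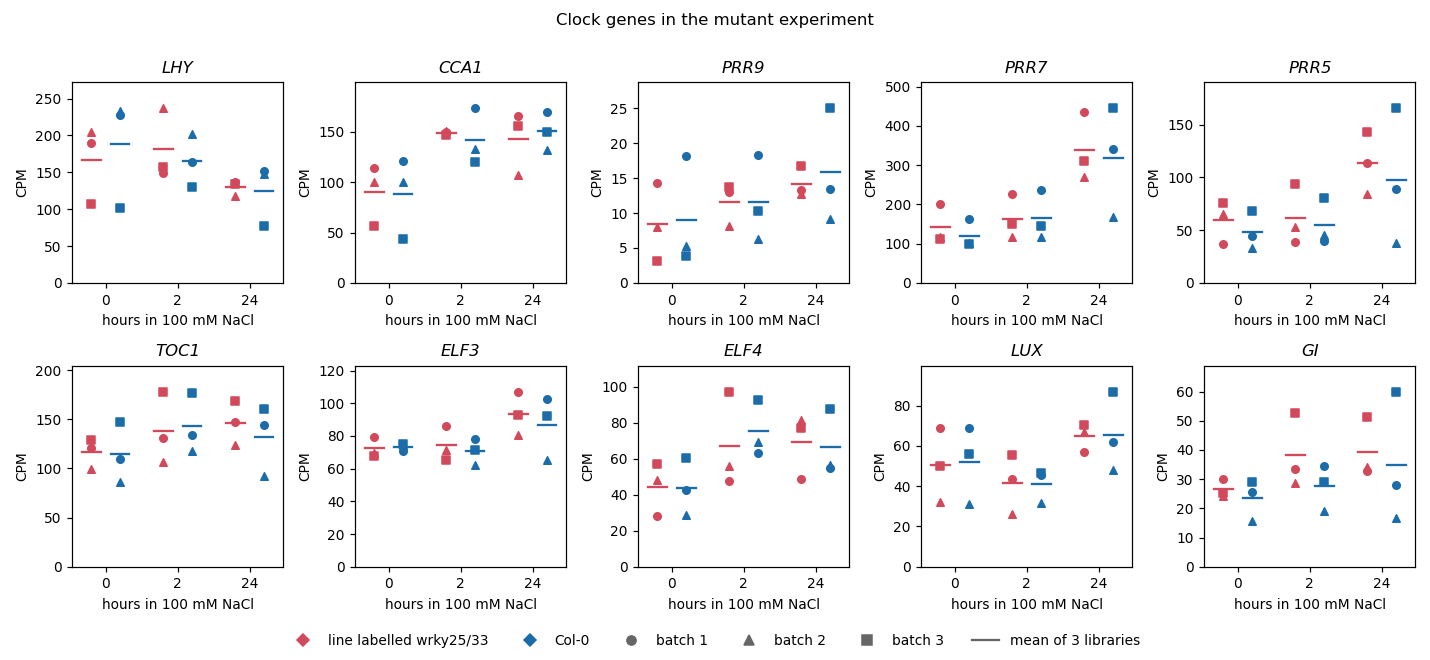
Level of each of the 10 clock genes in CPM (linear axis from 0) at 0, 2 and 24 h of 100 mM NaCl, with the line labelled wrky25/33 to the left of Col-0 at each time; the marker shape gives the batch and the bar is the mean of 3 libraries. PRR7 lies above its 0 h libraries at 24 h in both lines, and CCA1 and PRR9 have their lowest values in the 0 h libraries of batch 3.

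PRR5, the pseudo-response regulator expressed after PRR7, followed it with more scatter. It had 114, 84.0 and 143 CPM at 24 h in the line labelled wrky25/33, against 37.2, 65.4 and 76.0 CPM at 0 h. In Col-0 it had 88.8, 37.9 and 166 CPM at 24 h, against 44.3, 33.0 and 67.9 CPM at 0 h. The rise was 0.93 ± 0.47 and 1.01 ± 0.47 on the log2 scale, with edgeR adjusted p of 0.175 and 0.144. With the block it was called in both lines, at 0.93 ± 0.29 and 0.92 ± 0.29 (adjusted p of 0.0220 and 0.0230). Within batches 1, 2 and 3 the differences at 24 h were 1.61, 0.36 and 0.91 in the line labelled wrky25/33 and 1.00, 0.20 and 1.29 in Col-0.

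The morning pair differed from each other here too. CCA1 in the line labelled wrky25/33 had 149, 151 and 147 CPM at 2 h and 165, 107 and 156 CPM at 24 h, against 114, 99.7 and 56.2 CPM at 0 h. CCA1 in Col-0 had 174, 133 and 120 CPM at 2 h and 170, 132 and 149 CPM at 24 h, against 121, 99.7 and 43.9 CPM at 0 h. All 6 within-batch differences at 2 h and all 6 at 24 h were positive, from 0.39 to 1.45 at 2 h and from 0.10 to 1.76 at 24 h, with the highest in batch 3 in each case. In the order of the 6 group means of CCA1, the 0 h groups of both lines came last. The 0 h libraries of the line labelled wrky25/33 did not overlap the next group, Col-0 at 2 h, while those of the Col-0 0 h group did, and for each of the other clock genes every pair of neighbouring groups overlapped.

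Without the block CCA1 was not called at 2 h (0.73 ± 0.31 in the line labelled wrky25/33 and 0.69 ± 0.31 in Col-0, edgeR adjusted p of 0.197 and 0.180) or at 24 h (0.67 ± 0.31 and 0.77 ± 0.31, 0.144 and 0.0930). With the block CCA1 was called in all 4, at 0.78 ± 0.25 and 0.73 ± 0.25 at 2 h (0.0453 and 0.0475) and at 0.71 ± 0.25 and 0.83 ± 0.25 at 24 h (0.0404 and 0.0200). LHY had 138, 119 and 134 CPM at 24 h in the line labelled wrky25/33, against 190, 205 and 107 CPM at 0 h, and 151, 147 and 76.8 CPM at 24 h in Col-0, against 228, 234 and 102 CPM at 0 h. LHY was called in neither line with or without the block. Its within-batch differences at 24 h were negative in 5 of 6 cases, the exception being 0.32 in batch 3 of the line labelled wrky25/33.

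The evening genes changed only in the fit with the block. ELF4 had 47.5, 56.1 and 97.3 CPM at 2 h in the line labelled wrky25/33 and 48.9, 81.4 and 77.2 CPM at 24 h, against 28.4, 48.2 and 57.3 CPM at 0 h. In Col-0 ELF4 had 63.4, 69.6 and 92.9 CPM at 2 h and 55.2, 56.8 and 87.8 CPM at 24 h, against 42.6, 29.0 and 60.2 CPM at 0 h. All 12 within-batch differences of ELF4 were positive, from 0.22 to 1.26 at 2 h and from 0.37 to 0.97 at 24 h. With the block ELF4 was called at 2 h in Col-0 (0.79 ± 0.20, edgeR adjusted p = 0.0110) and at 24 h in the line labelled wrky25/33 (0.66 ± 0.20, 0.0190) and in Col-0 (0.60 ± 0.20, 0.0315), and missed the threshold at 2 h in the line labelled wrky25/33 (0.57 ± 0.20, 0.0646). Without it adjusted p lay at 0.349 and 0.161 at 2 h and 0.198 and 0.221 at 24 h, for the labelled line and Col-0.

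ELF3 had 107, 80.8 and 93.1 CPM at 24 h in the line labelled wrky25/33, against 79.6, 69.6 and 67.9 CPM at 0 h, and 102, 65.4 and 92.4 CPM at 24 h in Col-0, against 70.7, 74.4 and 75.3 CPM at 0 h. It was called with the block in the line labelled wrky25/33 alone (0.37 ± 0.13, edgeR adjusted p = 0.0341, against 0.136 without it), and in Col-0 had 0.21 ± 0.13 (0.197). TOC1 had 147, 124 and 168 CPM at 24 h in the line labelled wrky25/33, against 121, 99.5 and 129 CPM at 0 h, and 145, 92.0 and 160 CPM at 24 h in Col-0, against 109, 86.0 and 148 CPM at 0 h. With the block TOC1 was called at 24 h in the line labelled wrky25/33 (0.33 ± 0.11, 0.0342, against 0.374 without it) and at 2 h in Col-0 (0.34 ± 0.11, 0.0413, against 0.454 without it). All 12 within-batch differences of TOC1 were positive, from 0.10 to 0.46. Without the Col-0 24 h library of batch 2 the fit with the block called both at 24 h in Col-0, ELF3 at 0.35 ± 0.12 (0.0289) and TOC1 at 0.30 ± 0.11 (0.0444). A call in one line and not in the other does not show that the lines differ, and the interaction given below tested that difference.

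LUX, PRR9 and GI were called in no comparison with 0 h in the fits of all 18 libraries, with or without the block. With the block and without the Col-0 24 h library of batch 2, GI was called at 24 h in Col-0 (0.73 ± 0.25, edgeR adjusted p = 0.0314). LUX had 56.8, 66.9 and 70.4 CPM at 24 h in the line labelled wrky25/33, against 68.8, 32.3 and 49.8 CPM at 0 h, and 61.7, 48.1 and 86.8 CPM at 24 h in Col-0, against 68.8, 31.3 and 56.1 CPM at 0 h. PRR9 had 13.3, 12.7 and 16.7 CPM at 24 h in the line labelled wrky25/33, against 14.3, 7.99 and 3.19 CPM at 0 h, and 13.5, 9.15 and 25.0 CPM at 24 h in Col-0, against 18.1, 5.22 and 3.80 CPM at 0 h. Its within-batch differences at 24 h were 2.36 and 2.69 in batch 3 of the line labelled wrky25/33 and Col-0, but -0.11 and -0.42 in batch 1. GI had 32.9, 34.1 and 51.1 CPM at 24 h in the line labelled wrky25/33, against 30.1, 24.2 and 25.2 CPM at 0 h, and 28.1, 16.8 and 59.9 CPM at 24 h in Col-0, against 25.6, 15.6 and 29.2 CPM at 0 h. The 6 within-batch differences of GI at 24 h were positive, from 0.105 to 1.04.

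**Figure D5:**
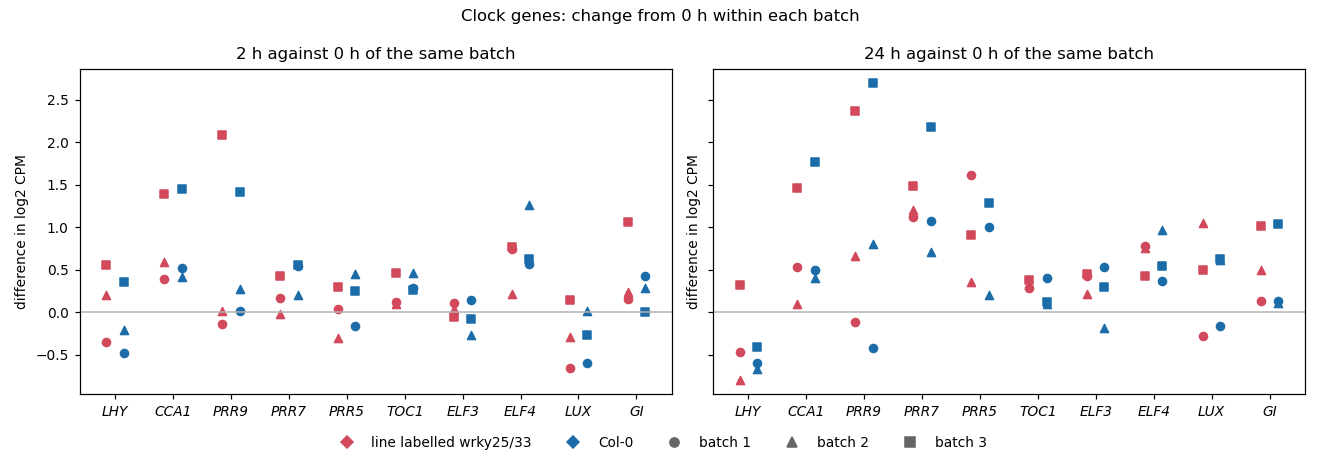
Difference in log2 CPM between 2 or 24 h and 0 h of the same batch for the 10 clock genes, with the line labelled wrky25/33 in red to the left of Col-0 in blue and the marker shape giving the batch. TOC1, ELF4 and CCA1 at both times and PRR7, PRR5 and GI at 24 h lie above 0 in all 6 batch and line pairs, and PRR9 spreads from -0.42 to 2.69 at 24 h.

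Counted over the 10 clock genes, the block changed the reading of every comparison with 0 h. At 2 h 0 were called without it in either line, where 3.61% of all genes rose and 2.25% fell in the line labelled wrky25/33 (5.86% in all) and 5.76% and 3.83% did in Col-0 (9.58% in all), with 1 and 2 clock genes at an unadjusted p under 0.05 and 0 and 0 by DESeq2. With it 1 rose at 2 h in the line labelled wrky25/33 and 3 in Col-0, where 10.3% and 13.4% of all genes were called higher. At 24 h 6 rose in the line labelled wrky25/33 and 4 in Col-0 with the block, where 18.4% and 18.7% of all genes were called higher, and 0 fell in either line, where 17.9% and 17% of all genes were called lower. The median log2 fold change of the 10 genes at 24 h without the block was 0.60 in the line labelled wrky25/33 and 0.59 in Col-0, beside -0.03 and -0.01 for all genes. Scaling by total reads moved the median of all genes by -0.27 at 24 h in both lines.

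Markers shifted in this experiment as well, but at 24 h the shoot markers moved in the opposite direction. In the time course their sum was 35630 to 40730 CPM at 24 h, against 46880 to 71560 CPM at 0 h. The 5 shoot markers summed to 32340 to 49380 CPM at 24 h in the line labelled wrky25/33, against 22490 to 31940 CPM at 0 h, and to 31810 to 46660 CPM in Col-0, against 20320 to 34450 CPM. In both lines 2 of 5 were called higher, and with the block 4 of 5 higher and 1 lower. The sum of 6 root markers (those 4 with EXPA7 and LRX1) was 2.86 to 5.28 CPM at 24 h in the line labelled wrky25/33, against 6.53 to 7.16 CPM at 0 h, and 1.17 to 4.53 CPM in Col-0, against 3.07 to 11.04 CPM. COBL9 was at 0 in all 3 libraries of 24 h in each line. Of the 2 root markers tested 0 were called at 24 h in the line labelled wrky25/33 by edgeR, with 0 at an unadjusted p under 0.05, and 1 fell in Col-0. At 2 h the root sum was 13.51 to 19.94 CPM in the labelled line, above 0 h, and 6.495 to 18.44 CPM in Col-0, overlapping 0 h. Without the block 0 of 2 were called at 2 h in either line, with 2 and 0 at an unadjusted p under 0.05. With the block 2 and 1 rose. The shoot sums at 2 h, 20910 to 36300 and 24670 to 37720 CPM, overlapped 0 h. The part of these shifts in the rise of PRR7 and the other clock genes was not tested.

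The line labelled wrky25/33 did not differ detectably from Col-0 in any clock gene at a matched hour. By edgeR 0 of 10 were called at 0, 2 or 24 h, where 0.155%, 0.176% and 0.181% of all genes were called, with 0 at an unadjusted p under 0.05 at each hour, 0 by DESeq2 and 0 with the block, where 0.233%, 0.331% and 0.295% of all genes were called. The log2 difference between the lines ran from -0.17 to 0.30 over the 10 genes at 0 h, from -0.17 to 0.47 at 2 h and from -0.16 to 0.22 at 24 h, with the widest difference in GI at 2 h (0.47 ± 0.38, adjusted p = 1.00). GI then had 33.5, 28.6 and 52.6 CPM in the line labelled wrky25/33, against 34.63, 18.95 and 29.13 CPM in Col-0. The interaction of line and time was called for 0 of 10 clock genes and 0% of all genes at 2 and 24 h, with 0 clock genes at an unadjusted p under 0.05 and 0 by DESeq2. For PRR7 at 24 h the interaction was -0.15 ± 0.53, for CCA1 -0.11 ± 0.44 and for LHY 0.22 ± 0.47 on the log2 scale. With the block these were -0.13 ± 0.31, -0.12 ± 0.36 and 0.29 ± 0.32. The difference of GI between the lines at 2 h was then 0.45 ± 0.26. Standard errors of either size leave moderate differences undetectable, and WRKY25 and WRKY33 were not detectably reduced in the line.

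The genes around the clock gave the same counts in both lines at 2 h for the RVE and LNK family, of which 3 of 9 rose in each by edgeR, with medians of 0.31 in the line labelled wrky25/33 and 0.35 in Col-0. PIF4 rose at 2 h in Col-0 (1.91 ± 0.28, adjusted p = 0.000625), with 27.8, 25.1 and 21.2 CPM, against 5.90, 6.96 and 6.73 CPM at 0 h. It also rose in the line labelled wrky25/33 (1.12 ± 0.28, 0.0249), with 25.4, 12.8 and 18.1 CPM, against 10.5, 5.66 and 9.88 CPM at 0 h, a call lost without replicate 2 or 3 of 0 h or replicate 1 or 3 of 2 h (adjusted p of up to 0.113). The interaction of line and time for PIF4 at 2 h was not called (-0.80 ± 0.39, adjusted p = 1.00). At 24 h 1 of 9 of the family rose in the line labelled wrky25/33 and 2 in Col-0. Of 15 outputs 1 rose at 2 h in the line labelled wrky25/33 and 2 in Col-0, and 2 and 3 rose at 24 h, with 0 that fell in any of these 4 comparisons. Beside these counts, 3.61% and 5.76% of all genes rose in the line labelled wrky25/33 and Col-0 at 2 h, as did 10.1% and 10.4% at 24 h. Of 15 other components 0 and 1 rose and 1 and 1 fell at 2 h, in the line labelled wrky25/33 and Col-0, and 3 and 3 rose and 0 and 1 fell at 24 h. Of 5 light receptors and HY5, 0 were called at 2 h in either line, with 1 and 1 at an unadjusted p under 0.05, and 2 rose at 24 h in each. With the block 2 and 2 of the RVE and LNK family rose at 24 h, in the line labelled wrky25/33 and Col-0. Of the outputs 2 and 4 rose and 1 and 0 fell at 2 h, and 3 and 3 rose and 1 and 1 fell at 24 h. Of the other components 2 and 3 rose and 1 and 1 fell at 2 h, and 5 and 5 rose and 2 and 1 fell at 24 h. Beside these, 10.3% and 13.4% of all genes rose at 2 h with the block. At 24 h 18.4% and 18.7% rose and 17.9% and 17% fell.

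PHYA, the far-red light receptor, had 139, 138 and 162 CPM at 24 h in the line labelled wrky25/33, against 65.6, 52.8 and 67.2 CPM at 0 h, and 138, 79.5 and 163 CPM at 24 h in Col-0, against 56.7, 50.6 and 54.0 CPM at 0 h. The rise was 1.24 ± 0.23 in the line labelled wrky25/33 and 1.24 ± 0.23 in Col-0 (edgeR adjusted p of 0.00280 and 0.00260). Both calls were kept without each single library and lost without all of batch 3 (0.0537 and 0.0870), as was the Col-0 call in a fit of its 0 and 24 h libraries alone (0.0703). EFL3, a relative of ELF4 at a low level, had 4.11, 4.25 and 2.38 CPM at 24 h in the line labelled wrky25/33, against 1.68, 1.32 and 0.975 CPM at 0 h (1.45 ± 0.32, 0.00839), and 3.93, 3.30 and 3.73 CPM in Col-0, against 1.09, 1.26 and 1.10 CPM (1.66 ± 0.33, 0.00394). The EFL3 call was lost in the line labelled wrky25/33 with first-strand counts (0.0503) and without both 0 h libraries of batch 3 (0.0526), and in Col-0 in a fit of its 0 and 24 h libraries alone (0.0588).

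The experiments share 0 and 24 h in Col-0, and their values stand side by side without a test across them, since each was normalized on its own. At 24 h against 0 h the log2 fold change of CCA1 was 0.71 ± 0.16 in the time course and 0.77 ± 0.31 in the mutant experiment, that of LHY -0.19 ± 0.19 and -0.59 ± 0.33, and that of GI -0.33 ± 0.15 and 0.58 ± 0.38. For TOC1 the values were -0.23 ± 0.11 and 0.21 ± 0.25, for ELF3 0.03 ± 0.13 and 0.24 ± 0.17, for ELF4 0.06 ± 0.17 and 0.60 ± 0.33 and for PRR9 0.39 ± 0.36 and 0.82 ± 0.58. CCA1 was called in the time course alone, and no other of these 7 genes was called in either, by edgeR without the block. With the block, edgeR called CCA1 (0.83 ± 0.25, adjusted p = 0.0200) and ELF4 (0.60 ± 0.20, 0.0315) in the mutant experiment. GI and TOC1 had opposite signs in the 2 experiments. So did the median log2 fold change of the 5 shoot markers, at -0.50 in the time course and 0.51 in the mutant experiment. The part of that shift in the clock gene values was not tested.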

How the data were processed

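Per the labels' protocols RNA was extracted with a plant kit and sequenced on Illumina libraries. The submitters' processing notes name STAR and TAIR10; no version or annotation is given in the sources used here. The authors deposited expected counts for the time course (1.42% of values not whole, rounded here) and counts per library for the mutant experiment. Its either-strand column was used, since 49% to 50.8% of reads of each clock gene lay on the second strand. The libraries are thus unstranded, and reads of overlapping or antisense genes cannot be told apart: for LUX the either-strand count was 78.8% of the sum of both strand columns, and for ELF3 91.4%, beside 89.7% over all genes. Summary lines, 11.2% to 15.6% of reads, were left out, and 0 columns of per-sample values were unmapped. Gene names come from a list, since the tables hold identifiers only. The reference table in use covers another plant, so no Arabidopsis sequence, length or coordinate is given and levels are not compared between genes.

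With edgeR 4.0.16 in R 4.3.3, genes were kept by filterByExpr (minimum count 10, minimum total 15; 15407 and 19316 genes), libraries were scaled by TMM, and each experiment was fitted separately by quasi-likelihood, with 1 coefficient for each group. Tests were two-sided, with Benjamini-Hochberg adjustment over all genes and calls below 0.05. An SE is the size of the log2 fold change over the square root of its F statistic. CPM are reads relative to the library size after TMM scaling, with a prior count of 2 where logs were taken. DESeq2 1.42.0, no filter, other scaling, single strands, fits of the compared groups alone, the replicate block and leaving out each library were alternatives. A difference of mean log2 CPM, with another prior count, was set beside each called value and gave no p-value. The scripts were tested on simulated data.

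The deposited condition sheet of the mutant experiment has a batch column that equals the replicate number, and 45 of 45 pairs of same-numbered libraries deviated together (r across genes of 0.175 to 0.754, against -0.492 to 0.117 between numbers), so the numbers pair them. The members and lists were chosen with earlier results of these data known. All 10 clock genes are named, with up to 4 genes of each list called in the most comparisons with 0 h, of which those printed were mainly those kept without each single library, chosen after their values were seen. Genes like CCA1 and TOC1 are those with the highest r of log2 CPM time means, of which the first 2 of 5 are printed. Other species and the chromatin samples of the series were not used here. A gene of the root marker list is not reported here and was left out of its sums and counts.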

Additional observations from a re-analysis of the deposited data

How the results depend on the processing

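No called result changed sign under any alternative. Of the 90 clock gene values of the mutant experiment, called or not, 6 changed sign with the block, the largest of them 0.0937 in size on the log2 scale. Of the values of called clock genes 76 stayed the same and 12 lost their call under the alternatives other than leaving out each library in turn. These include fits of the compared groups alone, fits without libraries of batch 3 and the block without the Col-0 24 h library of batch 2. Among the 76 are differences of mean log2 CPM, which give no p-value and were taken as the same within the SE. On leaving out 1 library 154 kept their call and 58 lost it. The count of clock genes called, 2 at 1 h of the time course, was 5 by DESeq2, 4 with the replicate block and 0 in a fit of the compared groups alone. At 3 h (1) it was 2 by DESeq2, 0 with scaling by total reads and 0 in the groups alone. With scaling by total reads it was 1 at 12 h (2), 0 at 48 h (1) and 0 among whole days (1). By DESeq2 it was 2 among whole days and 2 for 12 h against the mean of 0 and 24 h (1). In the mutant experiment the block gave 1 at 2 h and 6 at 24 h in the line labelled wrky25/33 and 3 and 4 in Col-0, against 0, 1, 0 and 1, and the groups alone gave 0 in Col-0 at 24 h. Among alternatives chosen after seeing the data, leaving out both 0 h libraries of batch 3 gave 0 at 24 h in both lines, as did leaving out all of batch 3. The block without the Col-0 24 h library of batch 2 gave 1 at 2 h and 6 at 24 h in the labelled line and 3 and 7 in Col-0. The cause was not tested. Leaving out 1 library gave 0 to 4 calls at 1 h, 0 to 3 at 3 h, 0 to 3 at 6 h, 0 to 2 at 12 h, 0 to 1 at each of 24, 48 and 72 h and among whole days, and 0 to 2 for 12 h against the mean of 0 and 24 h. It gave 0 to 1 at 24 h in the labelled line and 0 to 3 in Col-0, and 0 in the other comparisons. Time course numbers are not taken to pair the libraries, since only 13 of 28 pairs of times had same-numbered libraries with r over 0.1, although every pair among 0, 1 and 3 h (0.414 to 0.606) and among 24, 48 and 72 h (0.389 to 0.562) did, and the block changed no count there other than at 1 h. Over all genes the block moved calls to 3475 and 7021 at 2 and 24 h in the labelled line, against 1131 and 3571, and to 4823 and 6895 in Col-0, against 1851 and 3616. Without all of batch 3 they were 173 and 441 in the labelled line and 473 and 349 in Col-0, and Col-0 at 24 h had 61 in the groups alone.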
